A study of Mus musculus with 7 samples.

Results

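The ligands and receptors of the tumour necrosis factor (TNF) superfamily and the TRAF adaptor proteins were compared between sorted bone marrow stromal and endothelial cells of the mouse. Members were the genes whose single symbol in the array annotation starts with Tnfsf, Tnfrsf or Traf and a number, together with Tnf, Lta, Ltb, Cd40, Cd40lg, Cd27, Cd70, Fas, Fasl, Eda2r, Ltbr and Ngfr. Tnfsf11, Tnfrsf11a and Tnfrsf11b were left out. This rule took 45 of 18193 genes, on 73 probe sets, and no measured value entered it. Tnfsf12, Tnfsf13, Tnfsf15, Tnfsf18, Tnfrsf26 and Traf3 were not analysed here.

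RNA came from cells sorted from the marrow of 6- to 12-week-old wild-type C57Bl/6J mice, with 1800 to 10000 cells per sort, and was amplified before hybridisation to Affymetrix Mouse Genome 430 2.0 arrays. Both populations were sorted as negative for CD45 and lineage antigens. The stromal cells were CD54+CD31-BP1+ (4 arrays, stromal 1 to 4) and the endothelial cells CD54-CD31+ (3 arrays, endothelial 1 to 3). No array carried a genetic alteration or a treatment per the labels, which do not state the animals or sorts behind the replicates. Every p therefore rests on the spread between these arrays, which may be technical. Values are deposited log2 expression values, and a difference is the stromal mean minus the endothelial mean on that scale. Testing required a value above the array's own 40th percentile (5.48 to 5.79) on at least 3 arrays. It was called where limma's adjusted p (Benjamini-Hochberg over all 13995 genes tested) was under 0.05 and the difference was at least 1 in either direction.

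The stromal arrays carried the genes of their gate and type. Icam1 (CD54) and Enpep (BP1) were called higher there, and so were 9 of 10 reticular stroma markers, with a list mean between 12.81 and 12.97 per stromal array and between 6.13 and 6.93 per endothelial array. Pecam1 (CD31) was called higher on the endothelial arrays, but only 2 of 11 endothelial markers were, Kdr and Plvap. The mean of that list was 6.30 to 6.59 on endothelial and 5.29 to 5.49 on stromal arrays, and Cdh5, Tek, Tie1 and Emcn lay below the 40th percentile on all 7 arrays. All 10 megakaryocyte and platelet markers were called higher on the endothelial arrays (13.18 to 13.50 against 5.69 to 8.13, highest on stromal 4 among the stromal arrays), as were all 8 pan-leukocyte markers (10.83 to 11.03 against 5.54 to 7.38), Ptprc (CD45) among them, and 7 of 9 B-lineage markers. The cells labelled endothelial are therefore named here by their gate and label alone. Mean hybridisation control values (18 probe sets) reached 11.33 on endothelial 2 and 11.37 on endothelial 3, against 9.51 to 9.75 elsewhere, so a comparison within arrays of like control level sets endothelial 1 alone against the stromal arrays.

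TNF superfamily ligands are mostly trimers anchored in the membrane of the cell that makes them, and many can be shed. Their receptors fall into those with an intracellular death domain, which can assemble caspase-activating complexes, those that bind TRAF proteins directly, and decoys without signalling tails. TRAF proteins link the receptors to ubiquitin ligases and through them to NF-kappaB and the stress kinases. In the bone marrow, the family is known for supporting B cells through BAFF, for inflammatory control of stroma through TNF and lymphotoxin, and for co-stimulation between lymphocytes.

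The promoter sequences of 4 members are shown because these genes form or flank the axis with the largest opposed differences below: Tnfsf14 and Ltb encode ligands of the receptor encoded by Ltbr, and Tnfrsf19 had the largest difference of all members. The genes shown were chosen after their values were seen. The sequences are the 250 bases before each gene's start in the direction of transcription, from RefSeq on build GRCm38.p6, at chr14:61046856-61047105 (minus strand) for Tnfrsf19, chr6:125313886-125314135 (minus) for Ltbr, chr17:57194182-57194431 (minus) for Tnfsf14 and chr17:35194257-35194506 (plus) for Ltb. Capitals mark a match to the kappaB consensus.
Tnfrsf19: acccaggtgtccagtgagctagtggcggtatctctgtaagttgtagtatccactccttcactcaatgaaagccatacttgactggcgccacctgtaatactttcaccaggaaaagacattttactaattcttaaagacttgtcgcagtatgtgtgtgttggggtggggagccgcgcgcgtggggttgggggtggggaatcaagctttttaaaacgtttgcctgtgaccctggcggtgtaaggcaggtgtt
Ltbr: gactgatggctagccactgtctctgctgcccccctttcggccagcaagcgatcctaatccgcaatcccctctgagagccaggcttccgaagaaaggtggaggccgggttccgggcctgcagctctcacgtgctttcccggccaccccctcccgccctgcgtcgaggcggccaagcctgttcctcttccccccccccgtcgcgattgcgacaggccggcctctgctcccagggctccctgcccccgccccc
Tnfsf14: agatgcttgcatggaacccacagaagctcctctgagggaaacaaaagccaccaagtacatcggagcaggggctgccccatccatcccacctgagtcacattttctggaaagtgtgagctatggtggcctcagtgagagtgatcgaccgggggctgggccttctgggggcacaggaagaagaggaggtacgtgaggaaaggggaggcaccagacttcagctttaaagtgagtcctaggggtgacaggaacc
Ltb: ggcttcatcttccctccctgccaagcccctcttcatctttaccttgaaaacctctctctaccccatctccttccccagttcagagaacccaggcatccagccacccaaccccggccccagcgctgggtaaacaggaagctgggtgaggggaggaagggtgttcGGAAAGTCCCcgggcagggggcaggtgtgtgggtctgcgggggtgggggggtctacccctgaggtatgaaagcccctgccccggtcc
Promoter entries were at hand for 36 of the 45 members, in 40 entries. Both strands of each 250-base window were searched for the kappaB consensus, for the EBF palindrome TCCCNNGGGA and for AGATAA, recognised by the factors of the erythroid and megakaryocyte lineages. The kappaB consensus was present in 4 of the 36 members, Ltb, Tnfrsf8, Tnfrsf9 and Tnfrsf25, and in 7.25% of 32851 promoters. A member counted where any of its entries matched, while the percentages count each promoter entry, so these shares differ in unit. Tnfrsf9 and Tnfrsf25 each also had an entry without a match. In Ltb the match GGAAAGTCCC began 87 bases before the start. The EBF sequence was found in 0 of 36 members and 0.779% of promoters, and the latter in Tnfsf13b alone among the members and in 9.99% of promoters. Of the members called higher on the stromal arrays, 9 had an entry and 0 of these held the kappaB consensus, against 1 of 7 called higher on the endothelial arrays. These matches are letters in a window and do not show binding.

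Of the 45 members, 36 were tested. On the stromal arrays 10 were called higher, where 30.9% of all genes tested were, and on the endothelial arrays 9 were, where 16.1% of all genes tested were. The counts of ligands, receptors and TRAFs below stand against the same shares. In either direction 19 of 36 members were called, beside 47.0% of all genes tested, and the other 17 were not. Both populations were without overlap for 28 of the 36, 9 of them higher in stromal and 19 in endothelial samples, beside 68.4% of all genes tested. The median difference of the members tested was -0.57, and that of all genes tested was 0.19. A second quantile normalization moved the latter to -0.12 and cyclic loess to -0.03, and the split of all calls from 4319 stromal and 2252 endothelial to 3242 and 2994, and to 3269 and 2391. Fewer cells of a type and less RNA per cell cannot be told apart in these samples.

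The negative median of the members came with low values. Of the tested members, 14 failed a stricter filter at the 60th percentile, and all 14 had a lower mean on the stromal arrays, with a median difference of -0.70. The same was so of 81.7% of the 2795 genes of all kinds in that band, whose median difference was -0.65. Among the 22 members above the 60th percentile filter the median was 0.63, with 10 called stromal and 6 endothelial. The 11200 genes above it had a median of 0.56, and 37.2% of them were called stromal and 15.6% endothelial. The 9 members not tested were Cd70, Cd27, Fas, Tnfrsf9, Tnfrsf10b, Tnfrsf17, Tnfrsf23, Tnfrsf25 and Traf3ip3, with single values of 4.21 to 6.57. In 8 of them the stromal mean was the lower, as in 93.5% of the 4198 genes not tested. Small negative differences of dim members, given below as values, are thus shared by most genes at that level.

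**Figure D1:**
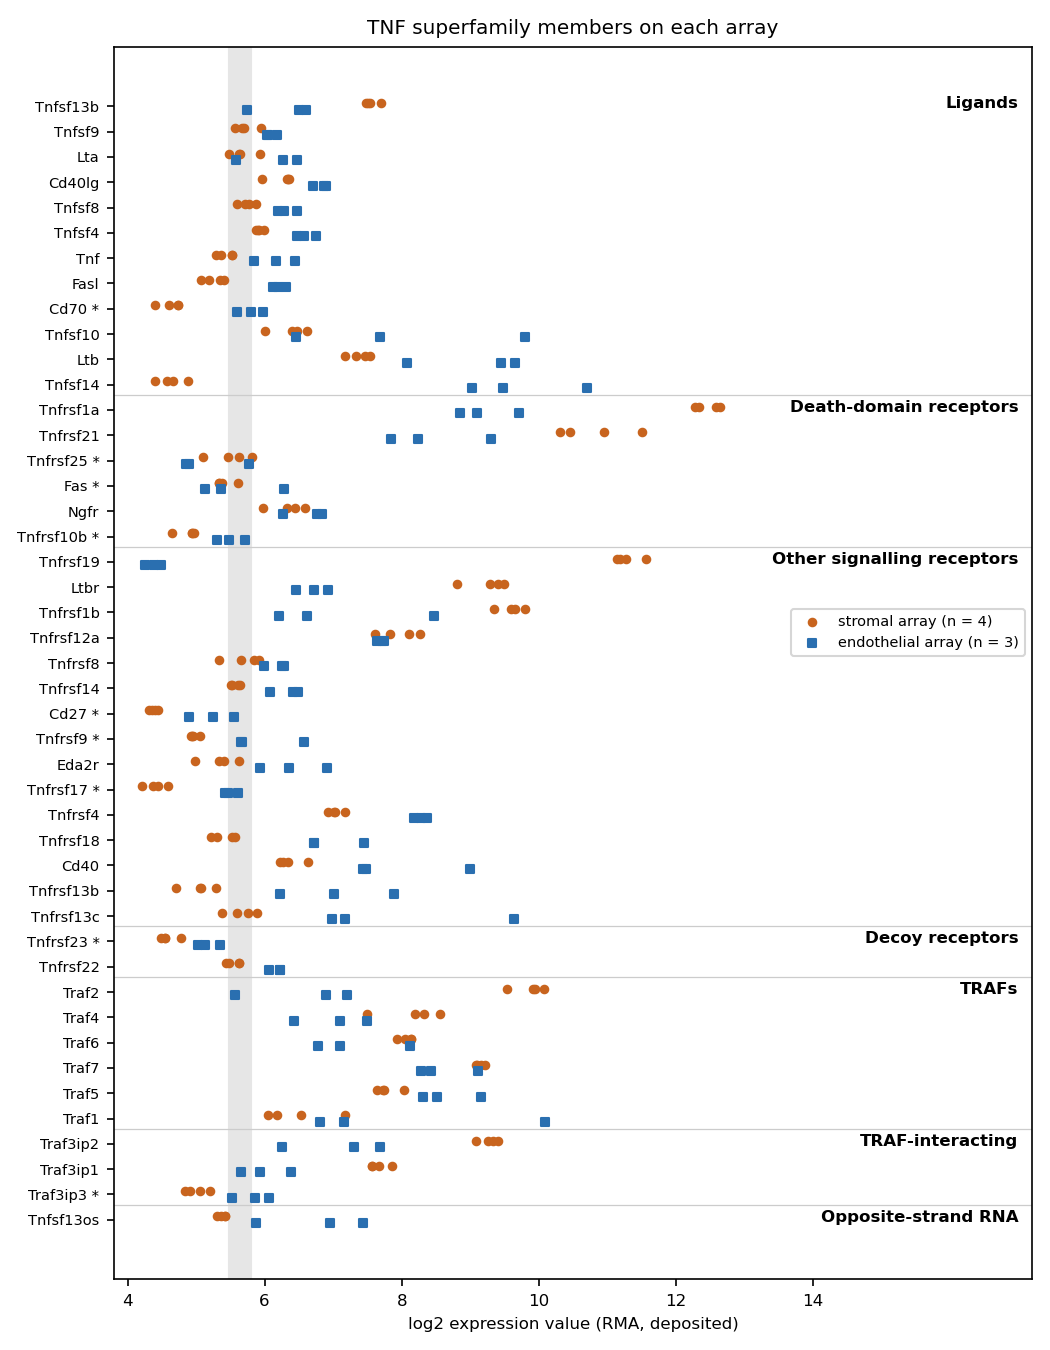
Deposited log2 values (horizontal axis) of the 45 members, grouped by role, with 1 circle per stromal and 1 square per endothelial array. The grey band spans the 40th percentiles of the arrays (5.48 to 5.79), an asterisk marks a member not tested, and Tnfrsf19 and Tnfsf14 show the widest gaps between the populations.

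Among the 12 ligands, 11 were tested, Tnfsf14 and Ltb were higher on the endothelial arrays, and Tnfsf13b was higher on the stromal arrays. Tnfsf14 encodes LIGHT, a ligand of the lymphotoxin beta receptor and of HVEM. Its values were 4.89, 4.58, 4.40 and 4.66 on stromal 1 to 4 and 9.49, 9.03 and 10.71 on endothelial 1 to 3. All 3 endothelial arrays were high, and the stromal arrays all lay below their 40th percentile, so no fold is given. The difference was -5.11 ± 0.37 (SE, limma, adjusted p = 1.16e-05). A second, dimmer probe set read 6.70, 5.58 and 6.22 on endothelial 1 to 3 (difference -1.20), with endothelial 2 below its 40th percentile. Megakaryocyte and platelet markers were high on these same arrays, with a list mean of 13.41, 13.18 and 13.50. Their part in the values of Tnfsf14 was not tested.

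Ltb encodes lymphotoxin beta, which anchors the lymphotoxin heterotrimer in the membrane. Its values were 7.17, 7.46, 7.54 and 7.33 on stromal 1 to 4 and 8.08, 9.44 and 9.65 on endothelial 1 to 3. The populations did not overlap, and endothelial 1 lay nearest to the stromal arrays. Ltb was 3.21-fold higher on the endothelial arrays (difference -1.68 ± 0.36 SE, limma adjusted p = 0.00426). With the hybridisation-control level as a block the difference was -0.71 and the call was lost.

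Tnfsf13b encodes BAFF, the survival factor of mature B cells. Its values were 7.51, 7.48, 7.54 and 7.69 on stromal 1 to 4 and 6.60, 5.74 and 6.49 on endothelial 1 to 3. The stromal arrays lay close together (SD 0.09, n = 4) and all above the endothelial ones. BAFF was 2.42-fold higher on the stromal arrays (difference 1.28 ± 0.24 SE, limma adjusted p = 0.00205). The call was lost when its 3 probe sets were averaged (0.26), under the hybridisation-control block (0.95) and without stromal 4 and endothelial 2 (0.96).

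Of the other ligands none was called, and each had a lower mean on the stromal arrays, except that Tnfsf9 turned to 0.056 after cyclic loess. Fasl, which triggers death through Fas, had means of 5.25 and 6.21 on stromal and endothelial arrays (difference -0.96, limma adjusted p = 0.00165). All its stromal values lay below the 40th percentile, so Fasl was tested through the endothelial arrays alone. Its difference was close to the 1 required. It passed without stromal 4 (-1.005), with the replicate block (-1.005) and without stromal 4 and endothelial 2 together (-1.01). Tnf itself had means of 5.42 and 6.15 (-0.73, 0.0113), and the OX40 ligand gene Tnfsf4 of 5.92 and 6.60 (-0.67, 0.00641). The CD30 ligand gene Tnfsf8 differed by -0.58, Cd40lg by -0.57, Lta by -0.44 and Tnfsf9 by -0.36, all by less than the difference a call requires. Cd70, whose receptor is Cd27, was not tested, with means of 4.62 and 5.79.

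Tnfsf10, which encodes the death ligand TRAIL, was uneven among the endothelial arrays. Its values were 6.00, 6.48, 6.40 and 6.62 on stromal 1 to 4 and 7.68, 6.46 and 9.80 on endothelial 1 to 3. By this probe set endothelial 3 stood far above the rest and endothelial 2 lay within the stromal range. The difference of -1.60 ± 0.67 (SE) did not pass (limma adjusted p = 0.0608). Without endothelial 2 it was -2.36 and passed, as it did in 5 of the 17 alternatives that gave a value, and without endothelial 3 it was -0.69. Another probe set, above the 40th percentile on all 7 arrays, did not overlap between populations (difference -1.20). It read 5.84 to 6.24 on the stromal arrays and 6.67, 6.53 and 8.73 on endothelial 1 to 3. The remaining probe set overlapped and gave -0.74. The mean of the probe sets, among those 5 alternatives, gave -1.18 (limma adjusted p = 0.031).

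Of the 6 receptors with a death domain, 3 were tested, and Tnfrsf1a and Tnfrsf21 were higher on the stromal arrays. Tnfrsf1a encodes the widely expressed TNF receptor that signals through TRADD. Its values were 12.34, 12.65, 12.58 and 12.28 on stromal 1 to 4 and 9.11, 9.72 and 8.85 on endothelial 1 to 3. All arrays of both populations were well above the 40th percentile, and the populations lay far apart. Tnfrsf1a was 9.46-fold higher on the stromal arrays (difference 3.24 ± 0.24 SE, limma adjusted p = 1.25e-05).

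Tnfrsf21 encodes death receptor DR6. Its values were 10.45, 10.95, 10.31 and 11.51 on stromal 1 to 4 and 9.31, 8.24 and 7.84 on endothelial 1 to 3. There was no overlap, with stromal 4 the highest and endothelial 3 the lowest. The gene was 5.07-fold higher on the stromal arrays (2.34 ± 0.41 SE, limma adjusted p = 0.00155). Its other probe set, the only one left when probe sets marked as cross-hybridising were set aside, gave a difference of 0.98, just short of a call.

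Ngfr, the low-affinity neurotrophin receptor gene, had means of 6.33 and 6.62 (difference -0.29, adjusted p = 0.272). The remaining death-domain receptors were not tested. Fas had means of 5.41 and 5.59, with 6.28 on endothelial 3 as its highest value. Tnfrsf10b, the mouse TRAIL receptor, had means of 4.87 and 5.50, and Tnfrsf25 (DR3) of 5.50 and 5.18.

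The 15 other signalling receptors were the largest class and gave the most calls. Of the 12 tested, 3 were higher on the stromal arrays (Tnfrsf19, Ltbr, Tnfrsf1b) and 6 on the endothelial arrays (Tnfrsf13c, Tnfrsf13b, Cd40, Tnfrsf18, Tnfrsf4, Eda2r).

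Tnfrsf19 encodes TROY, a receptor related to the ectodysplasin receptor. Its values were 11.57, 11.27, 11.14 and 11.18 on stromal 1 to 4 and 4.39, 4.25 and 4.49 on endothelial 1 to 3. The stromal arrays lay close together at a high level, and all endothelial arrays lay below their 40th percentile, so no fold is given. The difference was 6.91 ± 0.18 (SE, limma adjusted p = 1.25e-07). Its other probe sets gave 3.46 and, with overlapping arrays, 0.23.

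Ltbr encodes the lymphotoxin beta receptor, which signals through TRAF proteins to the alternative NF-kappaB pathway. Its values were 9.28, 9.41, 9.49 and 8.81 on stromal 1 to 4 and 6.46, 6.71 and 6.92 on endothelial 1 to 3. Every stromal array was above every endothelial one. Ltbr was 5.86-fold higher on the stromal arrays (2.55 ± 0.22 SE, limma adjusted p = 3.27e-05).

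Tnfrsf1b encodes the TNF receptor without a death domain. Its values were 9.35, 9.65, 9.60 and 9.80 on stromal 1 to 4 and 6.62, 8.46 and 6.20 on endothelial 1 to 3. Endothelial 2 lay well above the other endothelial arrays but below all stromal ones. The gene was 5.68-fold higher on the stromal arrays by this probe set (2.51 ± 0.49 SE, limma adjusted p = 0.00261). A second probe set, above the 40th percentile on all 7 arrays, pointed the other way (means 6.90 and 7.45, difference -0.55), and the mean of both gave 0.98 and no call.

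Tnfrsf13c and Tnfrsf13b encode BAFF-R and TACI, the BAFF receptors of B cells. Tnfrsf13c had values of 5.76, 5.89, 5.38 and 5.59 on stromal 1 to 4 and 6.98, 9.63 and 7.17 on endothelial 1 to 3. Tnfrsf13b had 5.07, 5.30, 5.06 and 4.71 on stromal 1 to 4 and 6.22, 7.89 and 7.01 on endothelial 1 to 3. Both were highest on endothelial 2 and did not overlap between populations. Tnfrsf13c was 4.83-fold higher on the endothelial arrays (-2.27 ± 0.59 SE, limma adjusted p = 0.00957), and Tnfrsf13b differed by -2.01 ± 0.37 (SE, adjusted p = 0.00194). Tnfrsf13b lay below the 40th percentile on all stromal arrays and was tested through the endothelial arrays alone, so no fold is given. Tnfrsf13c lay near the 40th percentile on the stromal arrays, and below it on stromal 3, so the size of its fold is uncertain. Without endothelial 2 the difference of Tnfrsf13c was -1.42 and still passed, and under the hybridisation-control block it was -1.32 and did not (adjusted p = 0.191). Tnfrsf17, which encodes BCMA, another receptor of this group, was not tested, with means of 4.41 and 5.50.

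Cd40, a co-stimulatory receptor of B cells and other antigen-presenting cells, had values of 6.27, 6.63, 6.23 and 6.34 on stromal 1 to 4 and 7.44, 8.99 and 7.48 on endothelial 1 to 3. Again endothelial 2 was the highest array and the populations did not overlap. Cd40 was 3.04-fold higher on the endothelial arrays (-1.60 ± 0.38 SE, limma adjusted p = 0.00619). Its difference under the hybridisation-control block was -1.07 and did not pass (adjusted p = 0.119).

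B-lineage markers moved with these 3 receptors. The mean of the 9 markers with values was 5.96 to 6.73 on the stromal arrays and 7.26, 9.30 and 7.43 on endothelial 1 to 3, again highest on endothelial 2. Of those markers 7 were called higher on the endothelial arrays, among them Cd79b with 11.44 on endothelial 2, and none lay below the 40th percentile on all arrays. The peak on endothelial 2 was not particular to B-lineage markers. The monocyte and macrophage list had means of 7.77, 8.33 and 7.68 on endothelial 1 to 3, and the neutrophil list 11.86, 12.55 and 9.54. The megakaryocyte and platelet list was instead highest on endothelial 3 (13.50). The part of any of these lists in the values of Tnfrsf13c, Tnfrsf13b and Cd40 was not tested.

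Tnfrsf18 (GITR) and Tnfrsf4 (OX40) encode co-stimulatory receptors best known on T cells. Tnfrsf18 had values of 5.30, 5.52, 5.21 and 5.56 on stromal 1 to 4 and 6.73, 7.45 and 6.73 on endothelial 1 to 3. Tnfrsf4 had 7.01, 6.92, 7.03 and 7.17 on stromal 1 to 4 and 8.37, 8.28 and 8.18 on endothelial 1 to 3. Neither gene overlapped between populations, and the endothelial arrays lay close together for Tnfrsf4. The differences were -1.57 ± 0.23 (SE, limma adjusted p = 0.000649) and -1.24 ± 0.16 (adjusted p = 0.000303), the latter a 2.37-fold higher level on the endothelial arrays. Means of the T and NK marker list were 5.66 to 5.88 on stromal and 6.69 to 7.31 on endothelial arrays, with 4 of 9 called endothelial, and their part in these values was not tested.

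Eda2r, a receptor for an isoform of ectodysplasin, was the smallest call of this class. It ranged from 4.98 to 5.62 on the stromal and from 5.93 to 6.91 on the endothelial arrays (difference -1.07 ± 0.27 SE, limma adjusted p = 0.0084). The call was lost without stromal 1 (-0.95), without endothelial 2 (-0.81) and under 4 other alternatives (-0.95 to -0.60). Receptors that were tested but not called were Tnfrsf12a, Tnfrsf14 and Tnfrsf8. Tnfrsf12a, which binds TWEAK, had means of 7.95 and 7.70, with the sign turned after a second quantile normalization or cyclic loess. Its other probe set did not overlap between populations (0.92), and the mean of both gave 0.59 and no call. Tnfrsf14, which encodes HVEM, had means of 5.57 and 6.33 (limma adjusted p = 0.00537). Tnfrsf8, which encodes CD30, had means of 5.69 and 6.17. Cd27 (means 4.38 and 5.23) and Tnfrsf9 (4.97 and 5.97, with 6.57 on endothelial 3) were not tested. The decoy receptors for TRAIL were dim as well. Tnfrsf22 had means of 5.54 and 6.17 and was not called (-0.63, adjusted p = 0.00848), and Tnfrsf23, with means of 4.59 and 5.17, was not tested.

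**Figure D2:**
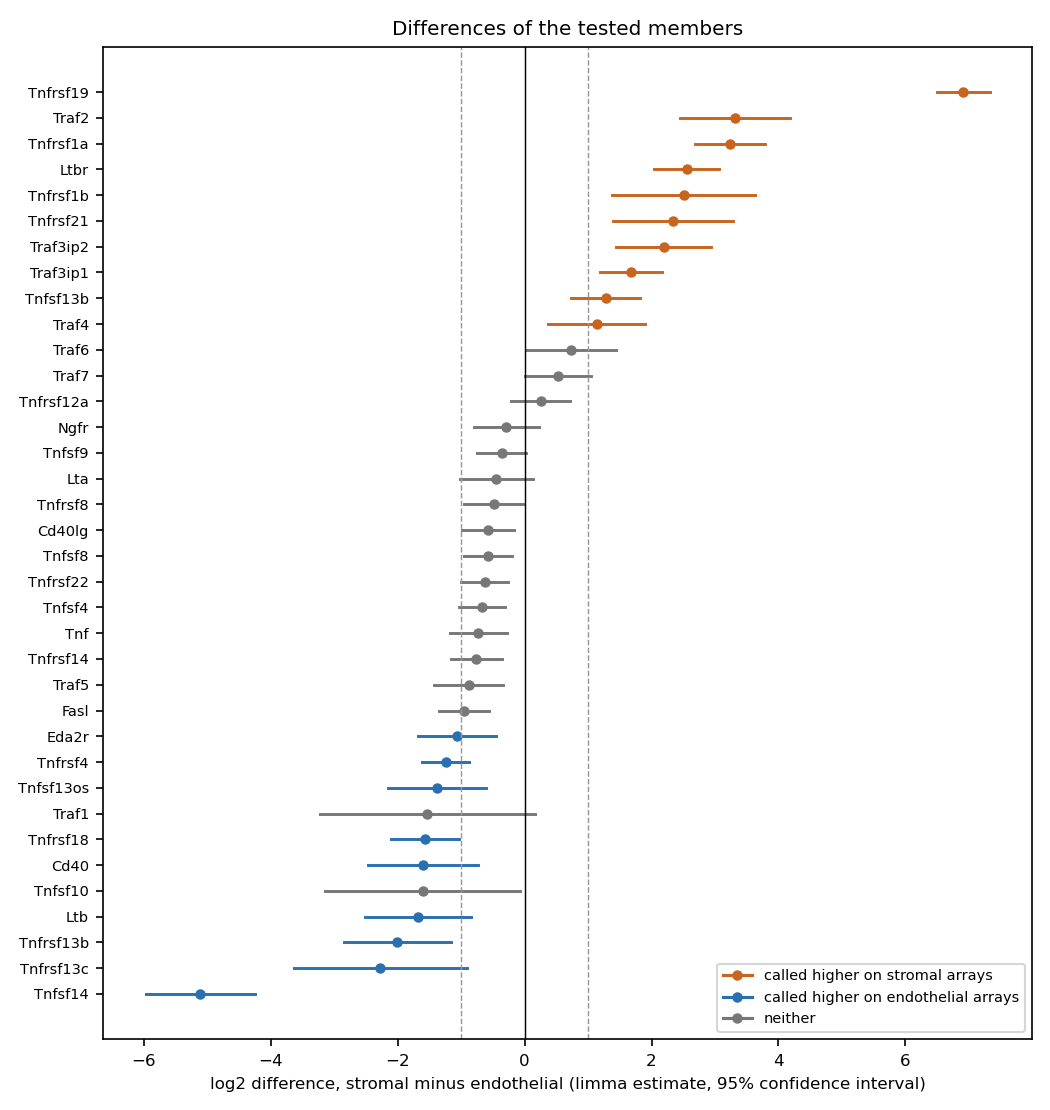
Log2 difference (stromal minus endothelial, horizontal axis) of the 36 members tested, with the limma estimate as a point and its 95% confidence interval as a bar. Dashed lines mark a difference of 1 in either direction. The 10 members called stromal stand at the top and run from Tnfrsf19 at 6.91 to Traf4 at 1.14, and Tnfsf14 stands alone at the bottom at -5.11.

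All 6 TRAF genes analysed were tested, and Traf2 and Traf4 were higher on the stromal arrays. Traf2 encodes the adaptor that brings the cIAP ubiquitin ligases to both TNF receptors. Its values were 9.54, 9.94, 9.91 and 10.08 on stromal 1 to 4 and 6.89, 7.21 and 5.57 on endothelial 1 to 3. The stromal arrays were all high. Endothelial 3 was the lowest and lay below its 40th percentile, so the size of the fold is uncertain. Traf2 was 9.94-fold higher on the stromal arrays (3.31 ± 0.38 SE, limma adjusted p = 0.00015).

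Traf4 had values of 8.19, 8.57, 8.33 and 7.49 on stromal 1 to 4 and 6.42, 7.10 and 7.50 on endothelial 1 to 3. Stromal 4 and endothelial 3 overlapped. The gene was 2.20-fold higher on the stromal arrays (1.14 ± 0.33 SE, limma adjusted p = 0.0159). The call did not hold without stromal 2 (0.996), without endothelial 1 (0.85), after a second quantile normalization (0.70) or after cyclic loess (0.64).

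Traf1, whose protein pairs with TRAF2 and which is itself induced by NF-kappaB, was likewise highest on endothelial 3. Its values were 7.17, 6.06, 6.18 and 6.52 on stromal 1 to 4 and 6.81, 7.15 and 10.09 on endothelial 1 to 3. The other endothelial arrays lay within the stromal range. The difference of -1.53 ± 0.74 (SE) did not pass (limma adjusted p = 0.0943), and it was -0.50 without endothelial 3 and passed at -2.14 without endothelial 1.

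On endothelial 3, where Tnfsf10 and Traf1 peaked, the mean of the T and NK list was 7.31, beside 7.28 on endothelial 2 and 6.69 on endothelial 1. Markers of that list peaked on different arrays, such as Cd3d on endothelial 3 (8.18) and Il7r on endothelial 2 (9.87). Their part in Tnfsf10 and Traf1 was not tested.

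Traf5 had means of 7.78 and 8.66 (-0.88, adjusted p = 0.0114), short of the difference a call requires, and it passed without endothelial 2 (-1.05), after a second quantile normalization (-1.45) and after cyclic loess (-1.51). Traf6, an adaptor of the interleukin-1 and Toll-like receptors as well as CD40, had means of 8.06 and 7.33 (0.73, adjusted p = 0.0624), with endothelial 2 at 8.12 inside the stromal range. Without endothelial 2 its difference was 1.13 and passed. Traf7, which has WD40 repeats in place of the TRAF domain, had means of 9.14 and 8.61 (0.53, adjusted p = 0.0666, and -0.11 after a second quantile normalization or cyclic loess).

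**Figure D3:**
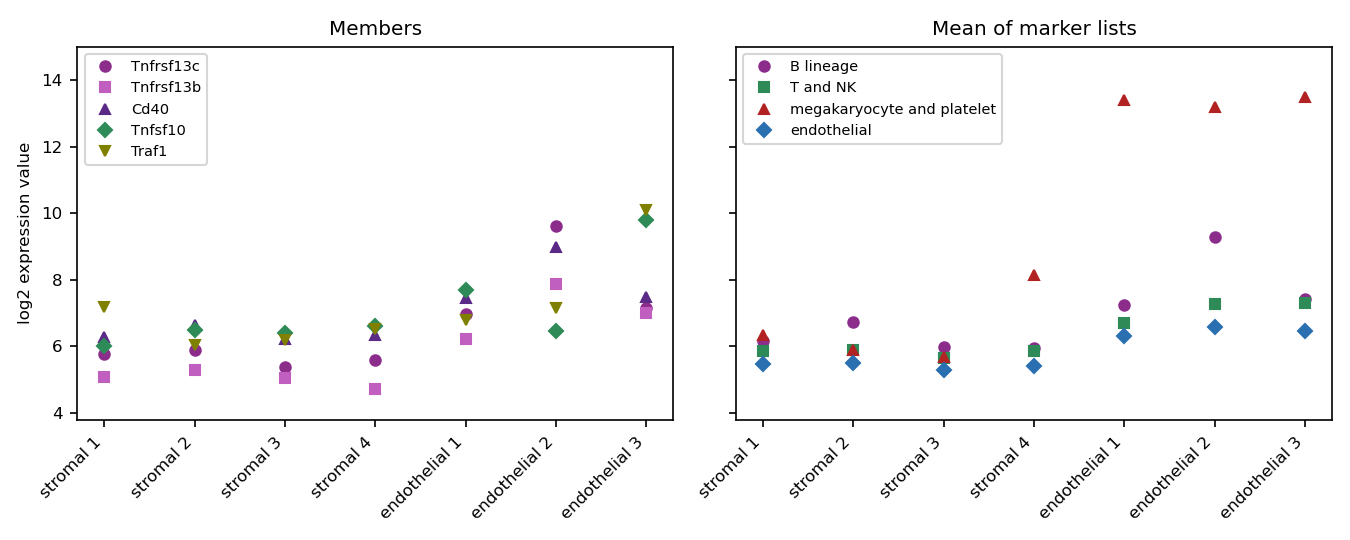
Log2 value on each of the 7 arrays (horizontal axis) for 5 members (left) and the mean of 4 marker lists (right). Tnfrsf13c, Tnfrsf13b and Cd40 peak on endothelial 2, as does the B-lineage list at 9.30, while Tnfsf10 and Traf1 peak on endothelial 3.

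The rule also took in 3 genes for proteins named as interactors of TRAF3, of which 2 were tested and both were higher on the stromal arrays. Traf3ip2 encodes ACT1, the adaptor of the interleukin-17 receptor. Its values were 9.40, 9.33, 9.09 and 9.25 on stromal 1 to 4 and 6.25, 7.68 and 7.31 on endothelial 1 to 3, a 4.56-fold higher level on the stromal arrays (2.19 ± 0.33 SE, limma adjusted p = 0.000671). Traf3ip1, a component of intraflagellar transport, had 7.57, 7.67, 7.57 and 7.86 on stromal 1 to 4 and 5.94, 5.65 and 6.38 on endothelial 1 to 3, 3.20-fold higher on the stromal arrays (1.68 ± 0.21 SE, adjusted p = 0.000289). Neither gene overlapped between populations. For Traf3ip1, endothelial 2 lay below its 40th percentile, so the size of that fold is uncertain. Traf3ip3 was not tested, with a stromal range of 4.84 to 5.20 and an endothelial range of 5.53 to 6.06.

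Tnfsf13os, a gene on the strand opposite Tnfsf13, carries a member's name without encoding a ligand. It ranged from 5.30 to 5.42 on the stromal arrays and was 7.43, 5.88 and 6.95 on endothelial 1 to 3 (-1.38 ± 0.34 SE, limma adjusted p = 0.00745). It lay below the 40th percentile on all stromal arrays and was tested through the endothelial arrays alone, so the difference is not resolved. The mean of its probe sets (-0.96) and cyclic loess (-0.99) ended the call.

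Ligands and receptors among the members were also set side by side. LIGHT (-5.11) and lymphotoxin beta (-1.68) were higher on the endothelial arrays and their shared receptor Ltbr (2.55) on the stromal arrays, while the second LIGHT receptor, HVEM, was not called (Tnfrsf14, -0.76). For TNF, both receptors were higher on the stromal arrays by the probe sets used (Tnfrsf1a 3.24, Tnfrsf1b 2.51), though the second Tnfrsf1b probe set gave -0.55. Tnf was dim on all arrays and not called (-0.73). BAFF was higher on the stromal arrays by the probe set used (1.28), though its other probe sets gave -0.40 and -0.10. BAFF-R (-2.27) and TACI (-2.01) were higher on the endothelial arrays. OX40 and CD40 were called and their ligands were not: OX40 differed by -1.24 and its ligand by -0.67, CD40 by -1.60 and its ligand by -0.57. Of the CD30 pair neither was called (Tnfrsf8 -0.49, Tnfsf8 -0.58), and Cd27, Cd70 and Tnfrsf9 were not tested. For TRAIL, neither the ligand by the probe set used nor the decoy receptor gene Tnfrsf22 was called, and Tnfrsf10b and Tnfrsf23 were not tested. Under the hybridisation-control block the calls of lymphotoxin beta, BAFF, BAFF-R and CD40 were lost. All these differences share the same 7 arrays. RNA levels on arrays do not show which proteins met or which cells in a sort carried the RNA.

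**Figure D4:**
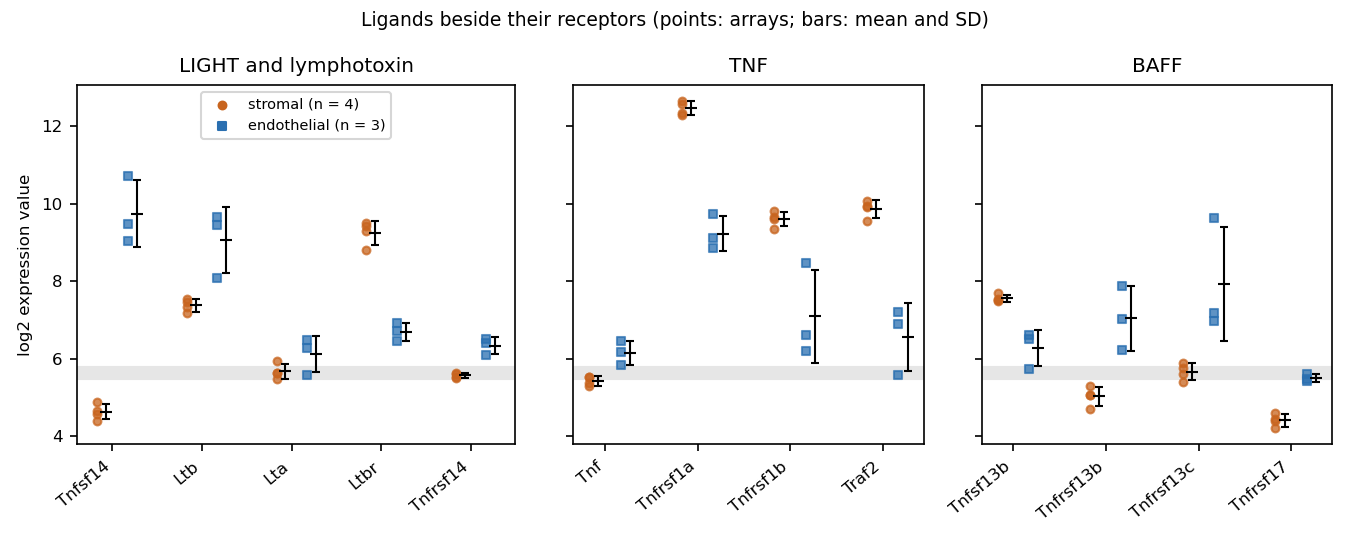
Log2 values (vertical axis) of ligands beside their receptors for LIGHT and lymphotoxin, TNF (with Traf2) and BAFF, 1 point per array, with the mean and SD as bars and the 40th percentiles of the arrays as a grey band. Tnfsf14 is high on the endothelial and Ltbr on the stromal arrays. Heights of different genes are not comparable.

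Members near each other in the genome were compared by name in the RefSeq gene order. Ltb, Tnf and Lta are adjacent on chromosome 17, and of these only Ltb was called (-1.68, -0.73 and -0.44). Tnfsf9, Cd70 and Tnfsf14 are also adjacent on that chromosome, with differences of -0.36, -1.17 (not tested) and -5.11. Tnfrsf1b (2.51) and its neighbour Tnfrsf8 (-0.49) on chromosome 4 had opposite signs. On the same chromosome the neighbours Tnfrsf4 (-1.24) and Tnfrsf18 (-1.57) were both called higher on the endothelial arrays. Ltbr (2.55) and Tnfrsf1a (3.24), both called stromal, are separated by Scnn1a on chromosome 6, and Cd27, beyond Tuba3a, was dim in both populations.

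Probe sets of 1 gene did not always concur. Of the 18 members with several probe sets, 14 had the same sign in all of them. Those of Tnfrsf1b, Tnfsf13b, Traf1 and Traf6 disagreed in sign. For Tnfsf13b the other probe sets gave -0.40 and -0.10, the last below the 40th percentile on all arrays, and for Traf1 the other gave 0.46. Cd40 had 3 probe sets that gave -1.60, -1.81 and -1.77, and the second Traf4 probe set gave 1.06 beside 1.14. The second probe set of Tnfsf14 was dimmer and gave -1.20.

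**Figure D5:**
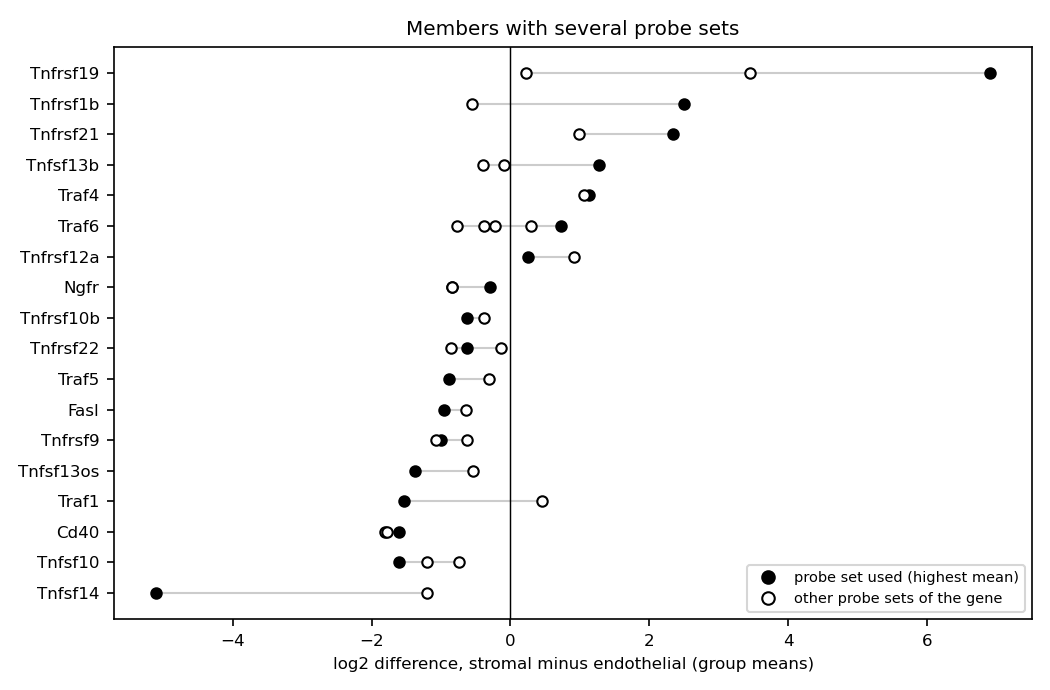
Log2 difference (stromal minus endothelial, group means, horizontal axis) of every probe set of the 18 members that have several. Filled points are the probe sets used and open points the others. Cd40 and Traf4 lie close together, and Tnfrsf19 spreads from 0.23 to 6.91.

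The spread between arrays was larger among the endothelial ones. The median SD of the tested members was 0.18 for stromal and 0.44 for endothelial samples, beside 0.21 and 0.39 over all genes tested. In 27 of 36 members (75.0%) the endothelial SD was the larger, as in 76.3% of all genes tested. The limma fit took a single variance per gene for both populations. For genes with a much larger endothelial spread, such as Tnfrsf13c (SD 0.22 stromal, 1.48 endothelial), the printed SE and p may therefore be too small. Of the 9 members called endothelial, 5 had their highest value on endothelial 2 and 2 each on endothelial 1 and 3.

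Genes downstream of the receptors were read from 4 lists with 92 entries, of which 84 had values and 78 were tested. Of these 37 were called stromal and 13 endothelial, with a median difference of 0.88, where 30.9% and 16.1% of all genes tested were called. The stromal count was 23 after a second quantile normalization and 24 after cyclic loess. Over all genes it went from 4319 to 3242 and 3269. The counts of each list below stand against the same background.

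In the list of NF-kappaB factors and kinases, 14 of 25 genes tested were called stromal and 1 endothelial, with a median of 1.23. Nfkbie, an inhibitor of NF-kappaB, differed by 3.37 (means 10.90 and 7.53, limma adjusted p = 0.000535). Relb, the transcription factor of the alternative pathway downstream of LTBR, differed by 2.79 (8.66 and 5.87, adjusted p = 1.9e-05). Tab3, a partner of the kinase TAK1, differed by 2.17 and Nfkbiz, an atypical nuclear inhibitor, by 1.99. The endothelial call was Tab2, another TAK1 partner (-1.11).

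The death and ubiquitin list was split, with 8 of 22 called stromal, 6 endothelial and a median of 0.27. Tradd, the adaptor of the death-domain TNF receptor, differed by 2.18 (means 9.43 and 7.26, limma adjusted p = 0.00711). Casp8, the initiator caspase, differed by 2.09, and the necroptosis genes Ripk3 and Mlkl by 1.59 and 1.58. Birc2, which encodes a cIAP that TRAF2 recruits, was called endothelial at -3.40 (9.18 and 12.58, adjusted p = 1.12e-06). Madd, a protein that binds the same death domain, differed by -2.25, the linear-ubiquitin protease gene Otulin by -2.06 and Casp6 by -1.30. Birc3, which encodes the other cIAP, was called stromal (1.19, adjusted p = 0.031), the direction of Traf2 (3.31).

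Of 11 relatives and shedding genes tested, 4 were called stromal and 2 endothelial, with a median of 0.19. Edar, the ectodysplasin receptor, differed by 3.14 (means 9.20 and 6.06, limma adjusted p = 7.33e-05), and Eda, the ectodysplasin gene, by 2.24 (8.72 and 6.48), while the member Eda2r was called endothelial (-1.07). Rhbdf1 and Adam17, which act in the shedding of TNF from the membrane, differed by 2.74 and 1.27. Rhbdf2, the iRhom relative of Rhbdf1, was called endothelial at -2.19, and the sheddase gene Adam10 at -1.65.

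Of 26 genes that TNF is known to induce in various cells, 20 were tested, 11 were called stromal and 4 endothelial, with a median of 1.28. Vcam1, an adhesion molecule, had a stromal mean of 13.25 and an endothelial mean of 5.69, the latter below the 40th percentile (7.56, limma adjusted p = 6.49e-05). The growth factor gene Csf1 differed by 4.88, the chemokine gene Cxcl10 by 3.88 and the transcription factor gene Irf1 by 3.21. Selp, which encodes P-selectin of platelets and endothelium, was called endothelial at -4.53 (6.06 and 10.59), and so were Tnfaip8 (-2.76), Cxcl5 (-2.03) and Ccl20 (-1.03). Csf2, Cxcl2, Il6, Plau, Ptgs2 and Sele had means below the 40th percentile in both populations and were not tested, though Ptgs2 (7.19) and Cxcl2 (6.00) on endothelial 2 and Plau (6.42) on endothelial 3 lay above it. Reticular stroma markers moved with the genes called stromal and megakaryocyte and platelet markers with those called endothelial, and their part in these lists was not tested.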

How the data were processed

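Expression was measured on 7 arrays, 4 stromal and 3 endothelial. The authors deposited log2 values from RMA in Affymetrix Expression Console 1.1, per the submitters' processing notes; RMA corrects background, normalizes by quantiles and summarises probes. Which arrays were normalized together is not given in the sources used here. Array medians lay between 6.00 and 6.19, and no columns were identical. Arrays have no read depth, and precision is limited by how many there are.

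Of the probe sets, 34945 had 1 symbol in an array annotation of 2016 and were used, 932 had several and 64 were controls. For each gene the probe set with the largest average across the 7 arrays was taken. Groups were compared with limma 3.58.1 (lmFit, eBayes, no covariates) in R 4.3.3 as described above, on all genes tested. The procedure was tested on simulated data with the same spread in both populations. That test does not cover the larger endothelial spread of these arrays.

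Members and gene lists were chosen with earlier results of these data known. Array values are given for up to 5 called members of each role by size of difference, and up to 4 called genes in each direction of each downstream list are named; Birc3, Cd79b, Cd3d, Il7r and the array values of Tnfsf10, Traf1 and of Tnfrsf18, Tnfrsf4 and Cd40 were added after their values were seen. Alternatives were another filter or none, the mean of probe sets, no cross-hybridising probe sets, a second quantile normalization, cyclic loess, trend and robust eBayes, adjusted p alone, blocks, and leaving out arrays.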

Additional observations from a re-analysis of the deposited data

Results flagged for a closer look

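Each of the 45 members was checked on the 4 stromal arrays for a single array far from the others, by its gap over the range; chance alone marks about 1 group in 20. Cd40lg was 5.96 on stromal 1, below 6.33 to 6.36 on the other stromal arrays. Fas was 5.61 on stromal 4, above 5.34 to 5.37 on the others. Tnfrsf10b was 4.64 on stromal 4, below 4.94 to 4.97 on the others. None of these 3 genes was called, and Fas and Tnfrsf10b were not tested. The 3 endothelial arrays are too few for this check.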

How the results depend on the processing

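Of the 19 members called, 10 kept their call under every one of the 18 alternatives, except that Tnfrsf13b failed the 60th-percentile filter and had 17, and none of the 19 changed sign. The 10 were Tnfrsf19, Tnfrsf1a, Ltbr, Traf2, Traf3ip1 and Traf3ip2 on the stromal side and Tnfsf14, Tnfrsf4, Tnfrsf18 and Tnfrsf13b on the endothelial side. Of these, Tnfsf14 and Tnfrsf13b were tested through the endothelial arrays alone and Tnfrsf19 through the stromal arrays alone. The stromal mean of Tnfrsf18 also lay below the 40th percentile. Adjusted p alone, without a minimum difference, called 17 members endothelial in place of 9, by construction. The stromal count of downstream genes, 37, was 23 after a second quantile normalization and 24 after cyclic loess; the cause was not tested. Signs were reversed for uncalled members only: Tnfrsf12a at -0.36 (quantile) and -0.31 (loess), Traf7 at -0.11 under both, Tnfsf9 at 0.056 (loess) and Traf6 at -0.070 (mean of probe sets). Leaving out 1 array at a time gave 9 to 11 stromal and 8 to 10 endothelial members. The labels do not say whether replicate numbers pair the arrays. Correlations of deviations between like-numbered arrays were -0.0021, 0.035 and 0.12. No unmatched arrays were set beside them, so they cannot decide it. With the replicate block, 10 members were called stromal and 10 endothelial, 20 in all, of which 19 were those called without it. With the hybridisation-control block, 10 and 6 were called. The mean of probe sets lowered Tnfrsf19 to 3.53 and Tnfsf14 to -3.16. Without detection calls, signal over background is unknown, and differences of members near or below the 40th percentile are not resolved.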
